A study of Mus musculus with 8 samples.

Results

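The let-7 family was followed in the brown fat of cold-exposed mice through 10 miRNAs on a mouse miRNA array, named there mmu-let-7a, mmu-let-7b, mmu-let-7c, mmu-let-7d, mmu-let-7e, mmu-let-7f, mmu-let-7g, mmu-let-7i, mmu-miR-98 and mmu-let-7d*, the last being the passenger strand of the let-7d precursor. They were taken by their exact names on the array and not by any measured value. They make up 10 of the 576 miRNAs on the array, of which 566 are murine and 10 viral, and 22 of its 1712 probes. Brown adipose tissue, the fat depot that burns fuel to make heat, was taken from male C57Bl6N mice aged 8 weeks. The cold group was 3 mice held at 8 °C for 24 h (mice 1 to 3), and the room temperature group was 3 mice kept at 21 °C (mice 4 to 6). The labels name no genetic change and no drug for either group. Total RNA of the tissue, carrying the Cy3 label, was read on 1-colour Agilent arrays. Mouse 1 and mouse 4 were each hybridised to 2 arrays, which were averaged, so that 8 arrays gave n = 3 mice per group.

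miRNAs are short RNAs that guide Argonaute proteins to messenger RNAs, mostly by pairing through a stretch near their 5′ end called the seed, and lower the output of those messengers. let-7 was found in Caenorhabditis elegans as a regulator of developmental timing. In mammals it is abundant in differentiated tissues, its maturation is blocked by the RNA-binding proteins LIN28A and LIN28B, and messengers of Hmga2, Myc and the Ras genes are among its known targets. In mice the Lin28 and let-7 axis is known to act on insulin signalling and glucose use.

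The mature sequences show what sets the members apart, and therefore which of them a hybridisation probe might confuse. All 10 were matched in the RefSeq miRNA table of the mouse assembly GRCm38.p6, and each is 22 bases long. They are written 5′ to 3′ with the seed, bases 2 to 8, in capitals.
let-7a: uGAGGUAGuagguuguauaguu
let-7b: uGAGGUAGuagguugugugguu
let-7c: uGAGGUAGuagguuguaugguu
let-7d: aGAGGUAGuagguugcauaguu
let-7e: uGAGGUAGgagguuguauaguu
let-7f: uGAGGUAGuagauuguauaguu
let-7g: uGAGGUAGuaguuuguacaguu
let-7i: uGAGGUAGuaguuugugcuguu
miR-98: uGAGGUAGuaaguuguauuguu
let-7d*: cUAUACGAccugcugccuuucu

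The 9 members other than let-7d* share the seed GAGGUAG, whereas let-7d*, from the opposite arm, has UAUACGA. Counted from 1 at the 5′ end, with the base of let-7a given first, let-7c differs from let-7a by A19G alone, let-7e by U9G alone and let-7f by G12A alone. let-7b differs by A17G and A19G, let-7d by U1A and U16C, let-7g by G12U and U18C, and miR-98 by G11A and A19U. let-7i stands farthest from let-7a, with G12U, A17G, U18C and A19U. Only 8 of the 22 positions vary among the 9, and all lie outside the seed. let-7k and miR-1961 have the same seed in the RefSeq table but are not on the array under these names.

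The members come from several precursor genes, so that 1 array name can stand for several loci. In GRCm38.p6 the mature let-7a, let-7f and let-7d of Mirlet7a-1 (chr13:48538239-48538260), Mirlet7f-1 (chr13:48537889-48537910) and Mirlet7d (chr13:48536078-48536099) lie on the minus strand in 1 cluster, with no other annotated gene overlapping them. let-7b (chr15:85707325-85707346) and 1 copy of let-7c, Mirlet7c-2 (chr15:85706616-85706637), lie together on the plus strand where the long noncoding RNA gene Lncppara is annotated. The other let-7c copy, Mirlet7c-1 (chr16:77599672-77599693), lies beside Mir99a, and let-7e (chr17:17830366-17830387) lies beside Mir99b and Mir125a within Spaca6. A second let-7f locus, Mirlet7f-2 (chrX:151912353-151912374), and Mir98 (chrX:151913229-151913250) both lie within Huwe1. let-7g (chr9:106178846-106178867) lies within Wdr82, and let-7i (chr10:122985698-122985719, minus strand) has no miRNA gene within 10 kb. The array measures the mature RNA and cannot tell the copies of let-7c or of let-7f apart. The coordinates are those of the RefSeq table, since the array files name no build.

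All 9 seed-sharing members were well above background on every array, with both of their probes. let-7d* has 4 probes, and 2 of them were well above background on all 8 arrays and 2 on none. Of the 22 probes of the family, 20 were thus detected throughout, and all 10 members entered the tests, each with 2 probes. The signal of a miRNA is given below as the mean over all its probes of the processed spot intensity, in the units of the scanner software. Probes bind their targets with different strength and near-identical sisters can bind one probe, so that signal orders the members as this array reads them and does not count molecules.

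let-7f gave the highest signal of the family, with 6261, 6075 and 7827 units in the 3 cold mice, against 7886, 7927 and 10451 units in the 3 room temperature mice. let-7a came next, with 5664, 6053 and 6920 units in the cold mice, against 6872, 6656 and 9765 units in the room temperature mice. The signal of let-7f was above that of let-7a in 6 of 6 mice, although the ranges of the members over the mice overlapped. let-7b averaged 3851 ± 345 units in the cold mice, against 5175 ± 737 at room temperature (SD, n = 3 each here and below). let-7g averaged 3750 ± 495 units in the cold mice, against 4741 ± 917 at room temperature, and let-7c 4204 ± 666 units in the cold mice, against 4260 ± 591 at room temperature. These 3 had no settled order: let-7b was above let-7g in 5 of 6 mice, and let-7g above let-7c in 2 of 6. Below them, let-7d had 2349 ± 163 units in the cold mice, against 3092 ± 619 at room temperature.

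The remaining members were dimmer and each was separated from its neighbours in all 6 mice, with ranges that did not overlap. let-7i had 1265 ± 118 units in the cold mice, against 1784 ± 291 at room temperature, and let-7e 700.1 ± 108.8 units in the cold mice, against 817 ± 113.4 at room temperature. miR-98 had 149, 212 and 220 units in the cold mice, against 188, 184 and 251 at room temperature. let-7d* averaged 25.0 ± 7.91 units in the cold mice, against 30.9 ± 6.33 at room temperature. Over all 6 mice the coefficient of variation of a member lay between 13.3% for let-7c and 25.7% for let-7d*.

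**Figure D1:**
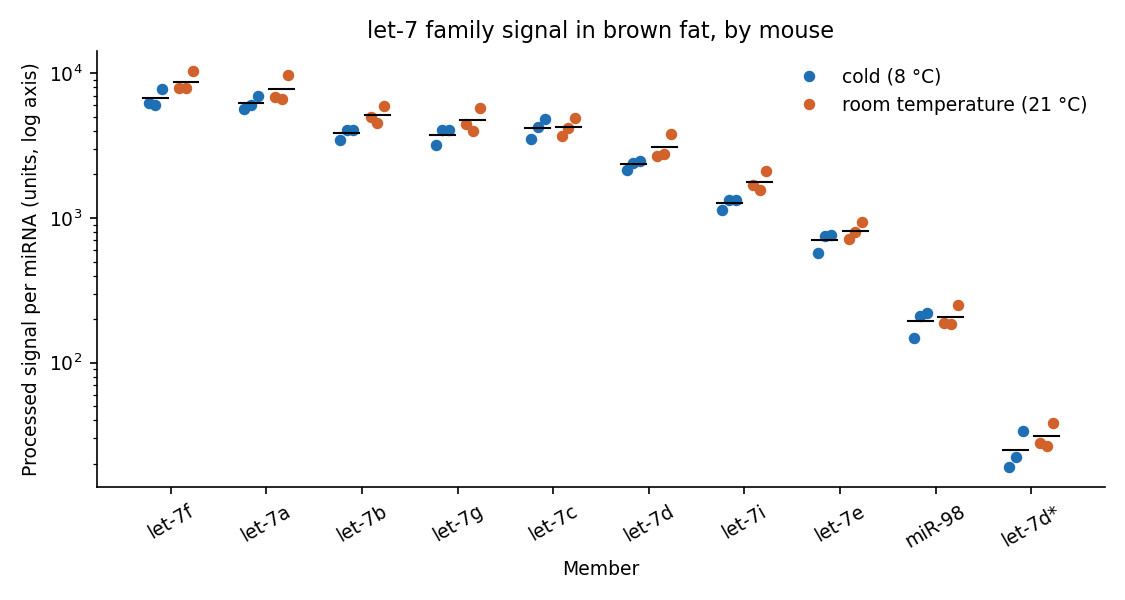
Processed signal of each let-7 family member (y axis, scanner units, log axis) in each mouse, with cold mice in blue left of room temperature mice in orange and the group mean as a line, before any scaling of the arrays. let-7f and let-7a are the brightest members, with means over all mice of 7738 and 6988 units, and let-7d* the dimmest at 28.0 units.

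The family made up a sizeable part of the miRNA signal read in this tissue. Its summed signal was 26119, 29186 and 32512 units in the cold mice, against 33218, 32660 and 43999 at room temperature. This was 26.8%, 21.3% and 22.9% of the summed signal of all 566 mouse miRNAs in the cold mice, against 22.0%, 24.1% and 20.5% in the room temperature mice. The 2 groups overlapped in this share. Among the 566, let-7f ranked 3rd or 4th in every mouse, let-7a between 4 and 6, let-7b between 7 and 9, let-7g between 8 and 10 and let-7c between 6 and 11. By mean signal over the 6 mice, only miR-451, the red-cell miRNA, and miR-126-3p, the endothelial miRNA, stood above let-7f, and miR-1 of striated muscle and miR-22 stood between let-7a and let-7b. let-7d ranked between 11 and 16, let-7i between 23 and 29, let-7e between 37 and 45, miR-98 between 66 and 76 and let-7d* between 116 and 141.

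Shares of the family's own signal do not need the arrays to be scaled and were compared between the groups. let-7f held 22.95% ± 1.85 of the family's signal in the cold mice, against 23.92% ± 0.303 at room temperature, and let-7a 21.24% ± 0.474 in the cold and 21.09% ± 0.970 at room temperature (SD, n = 3 each). With let-7b, let-7c and let-7g they made up 84.5% ± 0.719 of it in the cold and 83.8% ± 0.203 at room temperature. let-7c held 13.5%, 14.5% and 14.9% in the cold mice, against 11.2%, 12.8% and 11.1% in the room temperature mice. Every cold mouse lay above every room temperature mouse, and the means differed by 2.62 percentage points. let-7i moved the other way, with 4.32%, 4.59% and 4.08% in the cold mice, against 5.06%, 4.77% and 4.80% in the room temperature mice, again with no overlap, a difference of −0.547 percentage points. miR-98 held 0.571%, 0.725% and 0.677% in the cold mice, against 0.565%, 0.563% and 0.570% at room temperature. The lowest cold mouse, mouse 1, lay just above the highest room temperature mouse. For each of these 3 shares the exact permutation test (2-sided) gave p = 0.1, the smallest that 3 mice against 3 allow, and 0.333 after Benjamini-Hochberg adjustment over the 10 members. With the brightest probe alone in place of the mean over probes, the difference of let-7i became 0.161 percentage points, and that of let-7g 0.778 in place of −0.118. For the other 7 members the groups overlapped. How often groups are apart in such shares outside the family was not computed. In the normalised levels compared below, the groups did not overlap for 73 of 189 miRNAs (38.6%). Shares of 1 whole are also bound to each other, so that a rise in 1 member lowers others.

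**Figure D2:**
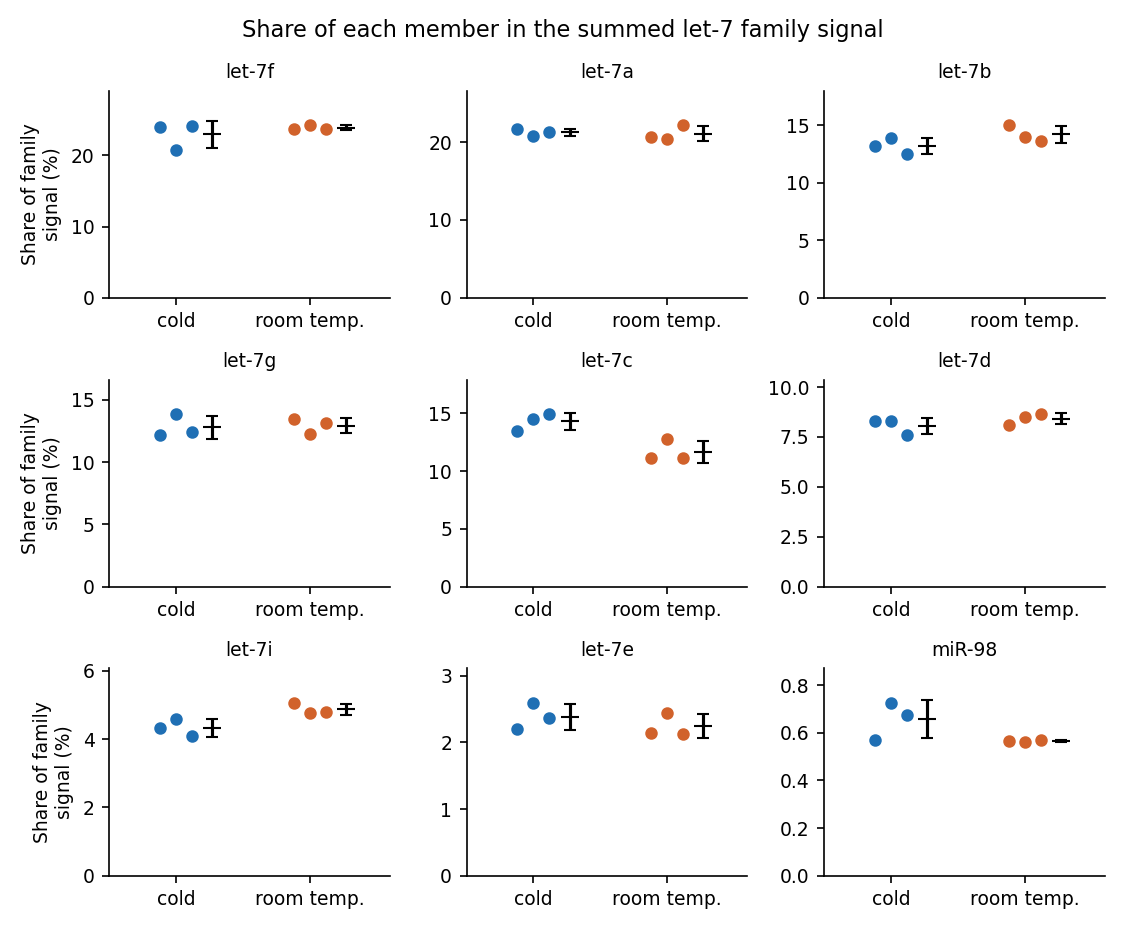
Share of each of the 9 seed-sharing members in the summed family signal (y axis, percent, from 0) by mouse, cold in blue left of room temperature in orange, with the mean and SD in black (n = 3 mice each). The groups are apart for let-7c, let-7i and miR-98 and overlap for the other 6 panels.

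The main comparison asked whether the members differ between cold and room temperature. None of the 10 did at the threshold used. Each array was divided by the 75th percentile of its detected probes, log2 was taken, and cold minus room temperature was fitted with limma over all 189 mouse miRNAs that passed a filter on dim probes. At an adjusted p under 0.05 the count was 0 of 10 members, against 29 of 189 miRNAs (15.3%). The 189 include miRNAs kept through the cold or the room temperature group alone. The tested probes of all 10 members were detected on all arrays. With the fit limited to probes detected on all arrays, 16 of 158 miRNAs and again 0 members passed. An unadjusted p under 0.05 was met by 2 members, let-7c and miR-98, and by 62 of the 189. Mice of the 2 groups did not overlap for 3 members, let-7c, let-7i and miR-98, where the background was 73 of 189 (38.6%). The estimates were above 0 for 9 of 10 members, with a median of 0.19 (range −0.21 to 0.39), beside a median of −0.02 and 90 above 0 over all 189. Since tissue RNA was measured in bulk, fewer cells of a type and less miRNA per cell cannot be told apart in any of these values.

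let-7c had the largest estimate. Its normalised log2 level was 2.21, 2.08 and 2.16 in the cold mice, against 1.67, 2.07 and 1.53 in the room temperature mice. Mouse 5 at room temperature lay next to the lowest cold mouse, and mice 4 and 6 lay clearly lower. The difference was 0.39 (SE 0.165, 95% interval 0.01 to 0.77; limma, adjusted p = 0.144), or 1.31-fold. Among the 189 miRNAs it ranked 60th by p. The 2 arrays of mouse 4 alone differed by 0.29 in let-7c.

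miR-98 had levels of −2.08, −1.99 and −2.06 in the cold mice, against −2.40, −2.24 and −2.49 in the room temperature mice. The cold mice lay within 0.1 of each other and above all room temperature mice. The difference was 0.33 (SE 0.126, 95% interval 0.04 to 0.62; limma, adjusted p = 0.116), or 1.26-fold, and ranked 49th by p. let-7f, encoded in part beside miR-98 within Huwe1, had an estimate of 0.26 (SE 0.136, 95% interval −0.05 to 0.58; adjusted p = 0.227). let-7f levels were 2.85, 2.64 and 2.77 in the cold mice, against 2.46, 2.65 and 2.36 in the room temperature mice, so that mouse 5 overlapped the cold group.

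let-7i was the only member with a negative estimate. Its levels were 0.50, 0.46 and 0.29 in the cold mice, against 0.59, 0.78 and 0.52 in the room temperature mice. The groups did not overlap, but mouse 1, held in the cold, and mouse 6, kept at room temperature, lay side by side. The difference was −0.21 (SE 0.134, 95% interval −0.52 to 0.10; limma, adjusted p = 0.311), or 0.863-fold. The 2 arrays of mouse 4 differed by 0.39 in let-7i, more than the 2 groups did.

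The other members had estimates closer to 0 or mice that overlapped. let-7a had levels of 2.80, 2.56 and 2.61 in the cold mice, against 2.37, 2.63 and 2.52 in the room temperature mice, which overlap, with a difference of 0.15 (SE 0.135, 95% interval −0.16 to 0.46; limma, adjusted p = 0.472). let-7b differed by 0.09 (95% interval −0.22 to 0.41), let-7d by 0.07 (−0.24 to 0.38) and let-7g by 0.04 (−0.25 to 0.33), with adjusted p-values of 0.677, 0.747 and 0.845. In all 3 the cold mice overlapped the room temperature mice. let-7e, the member beside Mir99b and Mir125a, differed by 0.23 (95% interval −0.10 to 0.56; adjusted p = 0.311). Its cold mice had levels of −0.27, −0.28 and −0.42 and its room temperature mice −0.63, −0.33 and −0.70. The passenger let-7d* had levels of −4.31, −4.51 and −4.04 in the cold mice, against −4.63, −4.46 and −4.81 at room temperature, and a difference of 0.35 (95% interval −0.04 to 0.74; adjusted p = 0.197). Over the 10 members the 95% intervals reached from 0.696-fold to 1.71-fold. Between the 2 arrays of mouse 1 the members differed by 0.05 to 0.30 on the log2 scale (median 0.19), and between those of mouse 4 by 0.0048 to 0.52 (median 0.10).

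**Figure D3:**
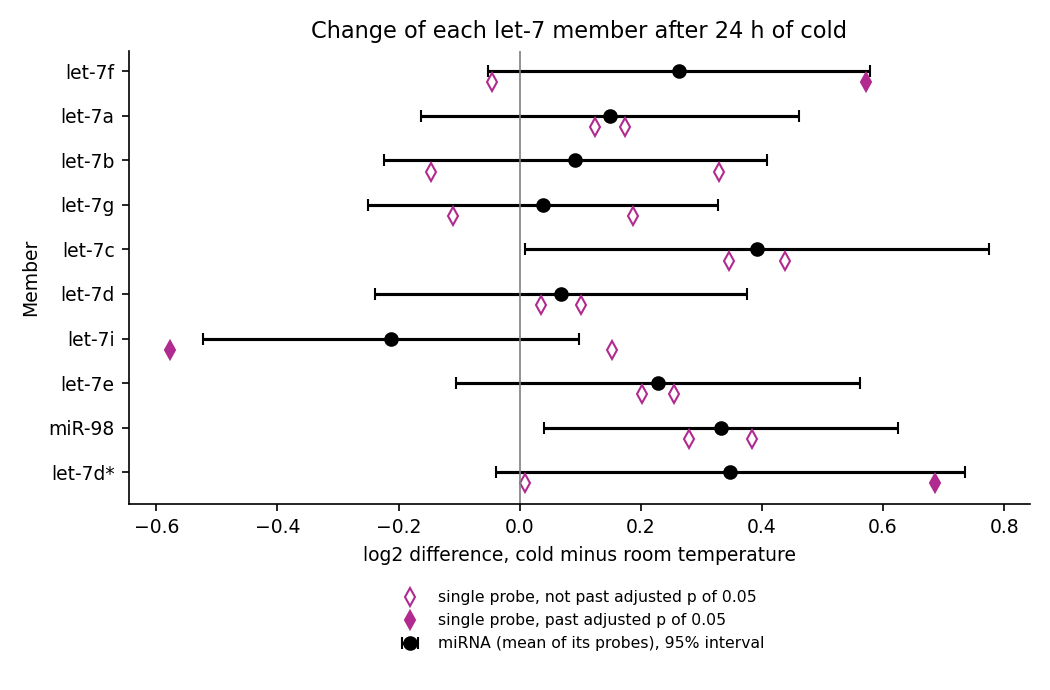
log2 difference, cold minus room temperature, of each member (x axis), as the limma estimate with its 95% interval in black and as the estimates of its 2 detected probes as diamonds, filled where the probe passed an adjusted p of 0.05. No member passed, 3 single probes did, and the probes of let-7f, let-7i, let-7b and let-7g lie on either side of 0.

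These differences are relative to the 75th percentile, and for 9 of the 10 members the sign depended on the scaling, while let-7i was negative under the 5 scalings drawn. That percentile was 793 ± 149.7 units in the cold mice, against 1085 ± 286 at room temperature (SD, n = 3 each). With no scaling all 10 members had negative estimates, from −0.65 for let-7i to −0.05 for let-7c, while the median of all 189 miRNAs was −0.46. With scaling to the control RNAs added to the samples, 6 of 10 members were above 0, and the median of all miRNAs was −0.12. With quantile normalisation let-7c at 0.50 and miR-98 at 0.41 passed, with adjusted p-values of 0.0478 and 0.0420 (limma). Over the 17 alternatives tried, the adjusted p of let-7c ranged from 0.0478 to 0.918 and that of miR-98 from 0.0420 to 0.821. A scaling by 1 factor per array shifts all members alike and cannot change their order. Quantile normalisation can, and with it let-7c had the highest and let-7i, at −0.22, the lowest estimate.

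**Figure D4:**
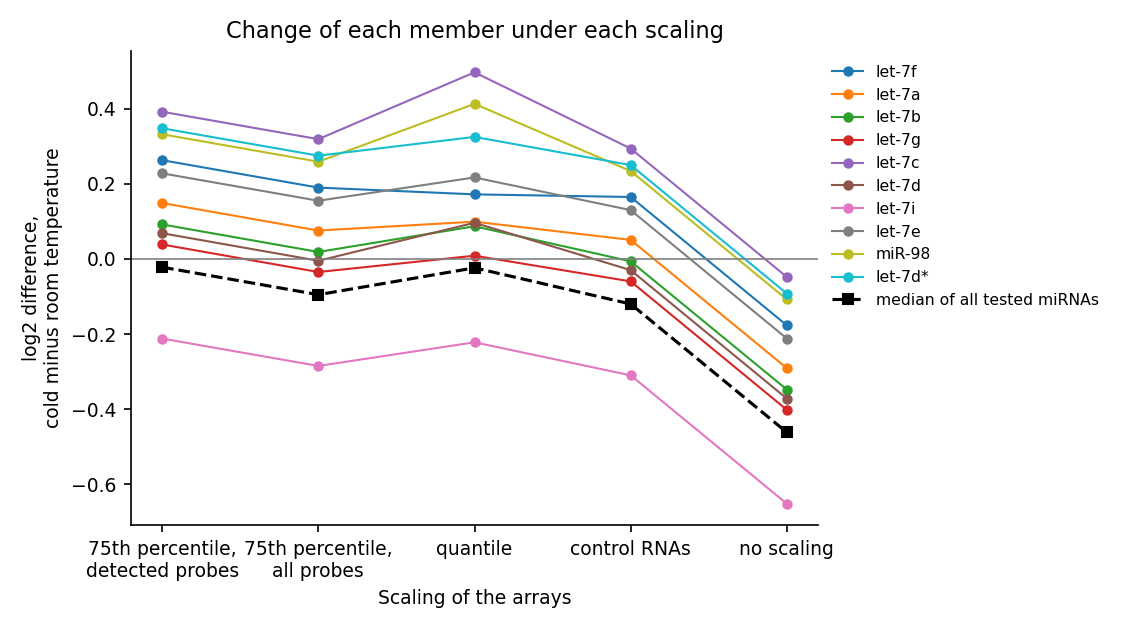
log2 difference, cold minus room temperature, of each member (coloured lines) and the median of all 189 tested miRNAs (black dashed line) under 5 scalings of the arrays (x axis). The lines move down together from the percentile scalings to no scaling, where all 10 members are below 0 and the median of all miRNAs is −0.46.

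The probes of 1 member did not always move alike. Fitted one by one with limma over all 329 detected probes, 3 of the 20 member probes passed an adjusted p of 0.05, beside 80 of 329 (24.3%). The 329 include probes not detected on all arrays, whereas the 20 member probes were. The mice did not overlap for 7 of the 20, beside 147 of 329 (44.7%). The dimmer let-7f probe, A_54_P2473, had normalised log2 levels of 1.62, 1.80 and 1.78 in the cold mice, against 1.15, 1.31 and 1.03 in the room temperature mice. It was 0.57 higher in the cold (SE 0.141; limma, adjusted p = 0.0274). The brighter let-7f probe, A_54_P2472, had 4.07, 3.47 and 3.77 in the cold mice, against 3.77, 3.99 and 3.68 in the room temperature mice, which overlap, with a difference of −0.05 (SE 0.187; adjusted p = 0.88).

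let-7i showed the opposite arrangement. Its dimmer probe, A_54_P2253, had levels of −0.53, −0.37 and −0.56 in the cold mice, against −0.11, 0.31 and 0.07 in the room temperature mice, and was lower in the cold by a log2 difference of −0.58 (SE 0.157; limma, adjusted p = 0.0362). Its brighter probe, A_54_P2254, had a difference of 0.15 (SE 0.165; adjusted p = 0.535), with overlapping mice. let-7d* repeated the pattern of let-7f: A_54_P1257 was 0.69 higher in the cold (SE 0.201; adjusted p = 0.0432), with a mean signal of 22.8 units in the cold mice, against 18.6 at room temperature. A_54_P1258, at 75.3 units in the cold mice, against 102.1 at room temperature, had a difference of 0.01 (SE 0.167). Leaving out 1 mouse at a time left between 0 and 1 of the 20 probes past the threshold: 1 without mouse 1, 1 without mouse 4 and 0 without any of mice 2, 3, 5 and 6. For 4 of the 10 members, let-7b, let-7f, let-7g and let-7i, the 2 probes differed in the sign of their estimates.

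The ratio of the brighter to the dimmer probe of a member is not altered by scaling an array with 1 factor. For let-7f it was 5.48, 3.17 and 3.96 in the cold mice, against 6.19, 6.43 and 6.26 in the room temperature mice, so that all cold mice lay below all room temperature mice. For let-7i it was 4.05, 3.14 and 3.26 in the cold mice, against 2.59, 1.91 and 1.86 in the room temperature mice, with the cold mice higher. let-7g had 3.00 ± 0.375 in the cold and 2.44 ± 0.0837 at room temperature, and let-7d* 3.29 ± 0.0884 in the cold and 5.46 ± 1.11 at room temperature (SD, n = 3 each), also without overlap. The groups were thus apart in 4 of 10 members, beside 46 of the 99 mouse miRNAs (46.5%) that have several probes detected on all arrays, a share close to that of the members. The exact permutation test (2-sided) gave p = 0.1 for each of these 4 ratios, the smallest possible, and 0.25 after adjustment over the 10 members. For let-7a, let-7b, let-7c, let-7d, let-7e and miR-98 the groups overlapped. More member spots were marked as outliers by the scanner software and left out on the cold arrays, 14 to 23 of 200 spots per array, than on the room temperature arrays, 5 to 13 of 200. With the marked spots kept, again 3 of the 20 member probes and 0 of the 10 members passed in the limma fits, and the 3 probes named above had differences of 0.57 for let-7f, −0.46 for let-7i and 0.54 for let-7d*.

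**Figure D5:**
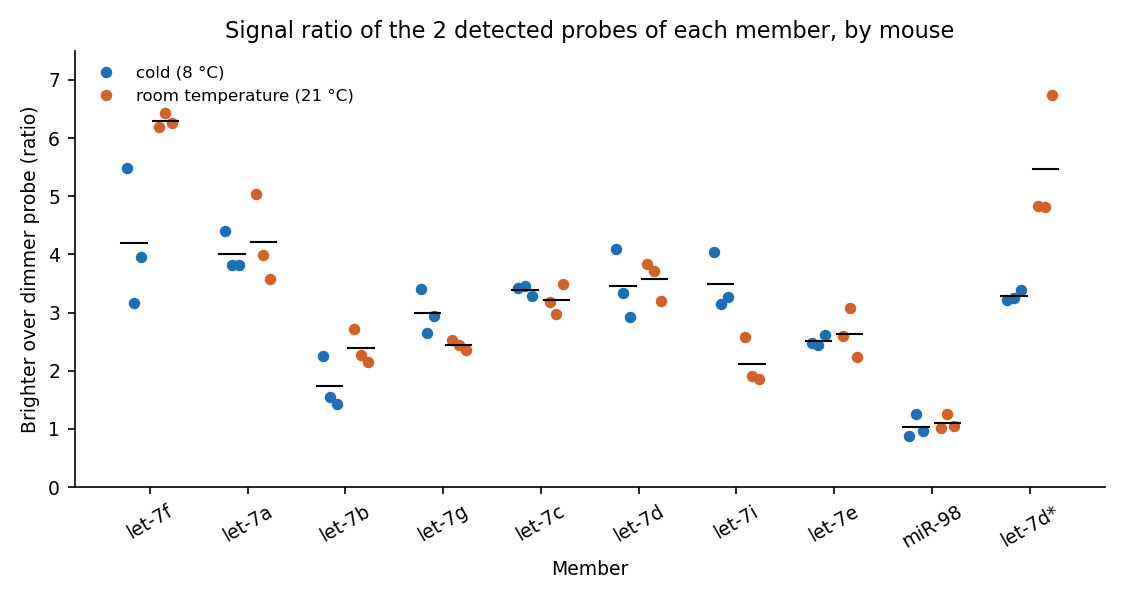
Ratio of the brighter to the dimmer detected probe of each member (y axis, from 0, no unit) in each mouse, cold in blue left of room temperature in orange, with group means as lines. The cold mice lie below the room temperature mice for let-7f and let-7d* and above them for let-7i and let-7g.

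The gap between the estimates of sisters was compared with the number of bases by which they differ. The 9 seed-sharing members form 36 pairs, and 4 of these, let-7a with let-7c, let-7e or let-7f and let-7b with let-7c, differ by 1 base. Within those 4 the log2 changes lay 0.08 to 0.30 apart, with a median of 0.18. The median gap was 0.12 for the 10 pairs that differ by 2 bases, 0.19 for the 11 pairs that differ by 3 and 0.29 for the 9 pairs that differ by 4. The 1 pair that differs by 5 bases, let-7e with let-7i, lay 0.44 apart, and the 1 pair that differs by 6, let-7d with let-7i, 0.28 apart. let-7b and let-7c, which differ by G17A and come in part from 1 cluster on chromosome 15, lay 0.30 apart. The wider gaps at 4 or more bases rest largely on let-7i, which is also in the pairs that differ by 5 and by 6. Among the pairs that differ by 4, those with let-7i lay 0.36 (let-7a) to 0.60 (let-7c) apart. Those without let-7i lay 0.02 (let-7b with let-7d) to 0.29 (let-7g with miR-98) apart. Pairs share members, so these values are a description. The files used here hold no probe sequences, and binding of 1 member to another's probe could not be measured.

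Apart from let-7d*, the passenger strands of the family were hardly detected. The array holds 6 others, let-7a*, let-7b*, let-7c-1*, let-7f*, let-7g* and let-7i*, on 24 probes. Of these, 23 were well above background on no array, with signals between −3.11 and 3.80 units. The other, a let-7a* probe, was well above background on 1 array, that of mouse 6 at room temperature, at 29.7 units.

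miRNAs of the miR-99 and miR-125 families, whose genes are known to cluster with let-7 genes, were set beside the members: miR-99a, miR-99b, miR-100, miR-125a-5p, miR-125b-5p and their passenger strands. Of these, Mir99a, Mir99b and Mir125a lie within 10 kb of a let-7 locus listed above. Of the 11, 9 were on the array and 6 were tested. The 5 detected in both groups had a median change of −0.21. Of these, 0 passed the limma test, beside 15.3% of all miRNAs past the threshold. With the fit limited to probes detected on all arrays, 16 of 158 miRNAs were past it. An unadjusted p under 0.05 was met by 1, miR-99a, beside 62 of all 189. miR-99a, which lies beside Mirlet7c-1, differed by −0.40 (SE 0.128; limma, adjusted p = 0.0741), where let-7c differed by 0.39. Beside let-7e, miR-99b differed by 0.18 (adjusted p = 0.437) and miR-125a-5p by −0.18 (adjusted p = 0.32). miR-125b-5p differed by −0.43 (adjusted p = 0.169) and miR-100 by −0.21 (adjusted p = 0.299). The sixth, the passenger miR-99b*, was well above background on the 4 cold arrays and on 0 room temperature arrays. It entered the fit through the cold group alone, with its room temperature mice at the floor of the scale, so that its adjusted p of 0.0129 (limma) is not counted with the others. With the lowest well-detected signal of each room temperature array in its place, its scaled level was 1.93-fold higher in the cold. miR-99b* was kept because it was detected in the cold, so this value is a description without a test. Before scaling, its mean signal over all its probes was 8.84 units in the cold mice, against 6.22 at room temperature.

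Across the 6 mice the mean profile of the 10 members was most like those of miR-676, miR-361, miR-574-5p, miR-423-5p and miR-542-5p among the miRNAs outside the family. Likeness was the root mean square distance of mean-centred log2 levels, which was 0.053 for miR-676 and 0.082 for miR-542-5p. let-7f was nearest to let-7e within the family (0.090) and to miR-676 outside it (0.077). let-7a was nearest to let-7d (0.060) and to miR-542-5p (0.046), and let-7b to let-7g (0.060) and to miR-574-5p (0.062). For let-7f and let-7a a miRNA outside the family was thus nearer than any sister. The nearest outside miRNA was picked from a far larger set than the nearest sister. This order therefore does not show that sisters are less alike than other miRNAs. All profiles share the arrays and their scaling, and these distances carry no test.

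Other features of the arrays moved with the groups. The only slide carried the cold arrays in row 1 and the room temperature arrays in row 2, and the effect of the row and that of the group cannot be told apart. Fewer mouse miRNAs were well above background in the cold mice, 182 ± 5, than at room temperature, 209 ± 15.3 (SD, n = 3 each). The brown fat miRNAs miR-193b, miR-365, miR-378 and miR-455 were well above background on all 8 arrays. Their summed signal was 6408 to 11334.7 units in the cold mice, against 7794 to 13477.5 at room temperature. With no scaling, 0 of all 189 miRNAs were called higher in the cold. On the normalised scale limma called 2 of these 4 brown fat miRNAs higher in the cold. Of all 189, it called 16 higher and 29 (15.3%) in either direction. Of 6 skeletal muscle miRNAs 4 were tested, and all 4 had negative estimates. The limma fit called 3 of these 4 lower in the cold, beside the 29 of 189 called in either direction. The fourth, miR-1, differed by −1.73 (limma, adjusted p = 0.0549). The summed signal of the muscle miRNAs was 1947 to 6664 units in the cold mice, against 10508 to 24322 at room temperature. The single liver marker, miR-122, had 1.17 to 1.74 units in the cold mice, against 7.01 to 177.4 at room temperature. The 5 leukocyte miRNAs summed to 429 to 940 units in the cold mice, against 1076 to 1659 at room temperature. The 5 stromal miRNAs summed to 529 to 864 units in the cold mice, against 1157 to 1786 at room temperature. Of the 4 stromal miRNAs tested, limma called miR-199a-3p and miR-214 lower in the cold. miR-143 had a change of −0.52 and miR-199a-5p one of 0.68 (limma, adjusted p = 0.423 and 0.169). The 3 erythroid miRNAs summed to 11159 to 23968 units in the cold mice, against 11000 to 22202 at room temperature, and the 2 endothelial ones to 7476 to 12482 units in the cold mice, against 11310 to 18880 at room temperature. The limma fit called 0 of the leukocyte, erythroid and endothelial miRNAs. An unadjusted p under 0.05 was met by 1, 2 and 0 of them in that order, beside 62 of all 189 miRNAs. The liver marker miR-122 was not called either. It was well above background on 4 arrays and entered the fit through the room temperature group alone. Its cold mice lay at the floor of the scale, so that its p is not counted here. On the normalised log2 scale the median change was 0.64 for the erythroid, 0.38 for the brown fat, −0.22 for the endothelial, −0.38 for the leukocyte, −0.64 for the stromal and −1.92 for the muscle miRNAs. Among the erythroid ones miR-144 differed by 0.83 and miR-451 by 0.64 (limma, adjusted p = 0.0525 and 0.058). Of the 3 neural miRNAs, miR-124 and miR-9 were well above background on no array and miR-128 on all 8. miR-128 had a change of −0.49 (limma, adjusted p = 0.156). The part of these features in the let-7 values was not tested.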

How the data were processed

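The authors deposited the scanner output of each of the 8 arrays. Its values are spot intensity on a linear scale after background subtraction, written by Agilent Feature Extraction 10.7.3.1 per the file headers, while version 9.5.3.1 is the one in the submitters' processing notes. The deposited value table held the same intensity values, with a largest difference of 0 and no scaling, centring or log; its column medians lay between 1.12 and 1.55 units.

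Per array, 11540 of 12493 spots carried miRNA probes. Control spots and marked outlier spots (2.09% to 2.63%) were left out, none was saturated, and spots of a probe were averaged. Arrays were scaled to the 75th percentile of the 267 probes detected on all of them, floored at 0.01 and put on the log2 scale. A probe counted as detected (well above background) on an array where over 0.5 of its spots carried the software's mark, and was kept if detected on all arrays of either group. A miRNA's normalised level was the mean over its kept probes. Arrays of a mouse were averaged. limma 3.58.1 (R 4.3.3; lmFit, eBayes) was fitted over 189 miRNAs and, separately, 329 probes, p-values being adjusted after Benjamini-Hochberg, with calls under 0.05. The fit was tested on simulated data. Single measures were compared with exact permutation tests in scipy 1.17.1. The number of mice, 3 per group, limits the precision. Named miRNAs were the 10 members, the other passenger strands, the cluster partners, the 5 miRNAs nearest to the members' mean profile and the nearest to each of the 3 brightest members. The members, lists and tests were chosen with earlier results of these data known. Other scalings, backgrounds, probe summaries, filters and left-out mice were tried, with the scanner's median signal in place of the mean signal for the background alternatives. Names of genes near the loci came from a RefSeq table.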

Additional observations from a re-analysis of the deposited data

How the results depend on the processing

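No paired analysis was possible because the groups share no mouse number, and all arrays lay on 1 slide, so no slide block could be fitted. The count of members past the threshold was 0, and 2 with quantile normalisation (let-7c and miR-98); leaving out 1 mouse gave 0 each time. The members' median change of 0.189 became −0.252 with no scaling and 0.0597 with the software's total signal (0.14 to 0.275 without 1 mouse). Of 10 members, 9 had a change above 0, and 0 with no scaling (8 to 9 without 1 mouse). The count over all miRNAs was 29, and 45 with quantile normalisation, 13 with no scaling, 14 with control RNAs, 6 with a normexp background (offset 50, on the median signal), 5 with no filter, 16 with detection on all arrays, and 8 to 33 without 1 mouse: 11 without mouse 2, 14 without mouse 3, 13 without mouse 5 and 8 without mouse 6. The 3 member probes became 1 with the percentile over all probes, no scaling, control RNAs or the first array of each mouse, 0 with no filter, and 0 to 1 without 1 mouse.

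Signs turned for members with no scaling (let-7a −0.291, let-7b −0.348, let-7c −0.0482, let-7d −0.372, let-7d* −0.0923, let-7e −0.212, let-7f −0.177, let-7g −0.402, miR-98 −0.108), with control RNAs (let-7b −0.00636, let-7d −0.0298, let-7g −0.0598), with the percentile over all probes (let-7d −0.00484, let-7g −0.0348), with the brightest probe (let-7b −0.146, let-7f −0.046, let-7i 0.153), with the software's total (let-7b −0.0297, let-7f −0.0176) and without mouse 6 (let-7g −0.00936, in a range of −0.00936 to 0.0916 without 1 mouse). Probe A_54_P1258 turned to −0.064 with the percentile over all probes, −0.431 with no scaling, −0.089 with control RNAs, −0.0182 with outlier spots kept (an alternative chosen after seeing the data), and −0.124 and −0.042 without mice 3 and 4 (−0.124 to 0.127 without 1 mouse). Probe A_54_P2254 turned to −0.287 with no scaling, and A_54_P2472 to 0.105 and 0.0421 without mice 2 and 5 (−0.197 to 0.105 without 1 mouse). The median of all miRNAs, −0.0219, was 0.207 with normexp. The cause was not tested. Of 377 values for single members, single probes, shares and the median of all miRNAs, 309 either kept direction and side of the threshold, where there was a test, or moved by less than the SD between mice, where there was none, which can include a turned sign. The family's share of all signal, 22.9%, ranged from 21.5% to 23.5% over the alternatives. Members near background, such as let-7d*, are limited by signal over background.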
